A study of Mus musculus with 12 samples.

Results

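The unfolded protein response genes described here are 10 genes that serve as readouts of this response. They are the transcription factor Xbp1, the chaperones and cochaperones Hspa5, Hsp90b1, Sdf2l1 and Dnajb9, the protein disulfide isomerases Pdia4 and Pdia6, the secreted folding factor Creld2, the degradation factor Herpud1 and the transcription factor Ddit3. They were chosen by name as genes of the XBP1, ATF6 and PERK branches, and all 10 were found by symbol among the 21960 genes listed for each tumor. RNA of 12 snap-frozen mammary tumors, 3 in each of 4 treatment groups, had been sequenced. The tumors grew in female C57BL/6 mice that express the polyoma virus middle T oncoprotein (PyMT) from the mouse mammary tumor virus promoter, which is active mainly in mammary epithelium. Mice of the IgG1 group received an isotype control antibody alone, and those of the anti-PD-1 group an antibody that blocks the T cell checkpoint receptor PD-1. Both antibody-only groups started treatment at a tumor diameter of 0.6 cm, with a first dose of 20 mg/kg and later doses of 10 mg/kg up to day 18. The combined groups, DOX/IgG1 and DOX/anti-PD-1, started at 1 cm and received 5 mg/kg of doxorubicin, an anthracycline that damages DNA, each week for 5 weeks, followed a day later by 10 mg/kg of the respective antibody. The sample labels give 5 weeks for every group, ages are not given in them, and they do not state that the tumors of a group came from separate mice, so p-values measure only the spread between these tumors.

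The unfolded protein response adapts a cell to misfolded proteins in the endoplasmic reticulum (ER). The sensor IRE1 splices Xbp1 mRNA into the form that encodes an active transcription factor, ATF6 is cut at the Golgi to release its own factor, and PERK slows translation while favoring ATF4 and its target Ddit3. Cells that secrete large amounts of protein, such as the milk-producing alveolar cells of the mammary gland and plasma cells, keep the IRE1 and XBP1 branch active and hold high levels of ER chaperones.

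ATF6 and XBP1 act on target genes through short promoter elements, and these were looked for in the RefSeq promoter windows of all genes (250 bases before to 50 after the start, GRCm38.p6), in which 10 of 10 genes were matched. The search covered both strands and 4 motifs, the ER stress response element ERSE (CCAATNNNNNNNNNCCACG), ERSE-II (ATTGGNCCACG), the core of the XBP1 element UPRE (TGACGTGG) and a composite C/EBP-ATF element (TGATGCAA). The letters CCACG close ERSE and ERSE-II and, on the opposite strand, lie within the UPRE core, so that 1 stretch can match several motifs. ERSE was present in 39 of 32851 windows (0.119%) and in 4 of the 10 windows, those of Hspa5, Hsp90b1, Pdia6 and Creld2. ERSE-II was present in 12 windows (0.0365%) and the C/EBP-ATF motif in 294 (0.895%), and Herpud1 was the only gene of the 10 with either. The UPRE core was found in 222 windows (0.676%) and in 0 of the 10. The 10 genes were chosen as genes of the branches that act through such elements, so these counts are no independent finding about them. The stretches around the matches are shown, with the motif in capitals, because Hsp90b1, Pdia6 and Creld2 were related to Hspa5 across the tumors by Pearson's r, and those of Herpud1 because its relation to Hspa5 did not pass. They lie at chr2:34772020-34772048 (plus strand) for Hspa5, chr10:86705613-86705681 and chr10:86705510-86705576 (minus strand) for Hsp90b1, chr12:17266466-17266534 (plus strand) for Pdia6, chr15:88819495-88819563 (plus strand) for Creld2, and chr8:94386352-94386412 and chr8:94386292-94386349 (plus strand) for Herpud1. In the nearer Hsp90b1 stretch, in Creld2 and in the C/EBP-ATF stretch of Herpud1 the motif reads on the opposite strand, so the capitals are its reverse complement.
Hspa5 (ERSE): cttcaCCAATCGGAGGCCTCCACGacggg
Hsp90b1 (ERSE, farther from the start): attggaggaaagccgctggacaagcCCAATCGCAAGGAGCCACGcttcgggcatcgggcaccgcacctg
Hsp90b1 (ERSE, nearer to the start): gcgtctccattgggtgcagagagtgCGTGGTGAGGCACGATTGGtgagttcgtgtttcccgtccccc
Pdia6 (ERSE): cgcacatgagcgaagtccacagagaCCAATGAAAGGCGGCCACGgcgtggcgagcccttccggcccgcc
Creld2 (ERSE): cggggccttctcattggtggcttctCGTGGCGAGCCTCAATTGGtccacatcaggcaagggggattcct
Herpud1 (ERSE-II): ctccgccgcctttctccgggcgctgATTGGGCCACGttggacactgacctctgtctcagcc
Herpud1 (C/EBP-ATF): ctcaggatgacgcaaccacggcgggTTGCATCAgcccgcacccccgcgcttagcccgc

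The Hspa5 match lies 65 to 47 bases before the RefSeq start and, in the GENCODE annotation, within untranslated exon 1 of a transcript that starts farther upstream. The Xbp1 window held none of the 4 motifs, which says only that these letters are not in that window. A look at transcripts, made after this was seen, found ERSE letters in untranslated exon 1 of a GENCODE Xbp1 transcript at chr11:5520906-5520924 (plus strand, GRCm38). Within their first 300 bases, 15 of 58797 protein-coding transcripts (0.0255%) hold such letters, among them transcripts of 2 of the 10 genes, Xbp1 and Hspa5.
Xbp1 (ERSE, in the transcript): CCAATCGCGGACGGCCACG

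Levels are given as TPM, transcript abundances scaled to transcript length, so they can be compared between genes. Per the file headers, the column names of the 3 DOX/anti-PD-1 tumors end in 2 and those of the other 9 in 1, and that of DOX/IgG1 replicate 1 also holds the word "test". What these marks stand for is not given, so any difference in processing behind the final number cannot be told apart from the DOX/anti-PD-1 group. TPM hold no read depth, so no counting error can be attached to them. Values in a group are listed in the order of replicates 1 to 3, and means are given with the SD (n = 3). Differences between groups were tested by limma after the log2(TPM + 1) transformation, for genes with 1 TPM or more in 3 or more tumors of the comparison, and log2 fold changes are on this scale, which makes changes of genes at low levels smaller than they are in TPM. A gene counted as called when its Benjamini-Hochberg adjusted p was below 0.1 and its log2 fold change beyond 1 in either direction, the limits that the study set for DESeq2 on counts, which were not used here, so calls do not stand for the study's. With 3 tumors against 3, an exact two-sided permutation test cannot give a p below 0.1, which is reached when the groups lie fully apart. All 10 genes passed the expression minimum in every comparison. Other scalings, by median-of-ratios size factors or to the same TPM sum, are named where they turn the direction of 1 of the 10 genes or of a median.

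Xbp1 (ENSMUSG00000020484, chromosome 11, 5520659 to 5525893, plus strand, with all gene coordinates in GRCm38) encodes the transcription factor of the IRE1 branch. It was at 779.7, 1019 and 860.0 TPM with IgG1, 968, 1004 and 815 TPM with anti-PD-1, 303, 368 and 297 TPM with DOX/IgG1 and 593, 718 and 544 TPM with DOX/anti-PD-1. All DOX/IgG1 tumors lay below every other tumor, the DOX/anti-PD-1 tumors lay between them and the antibody-only tumors, and only the IgG1 and anti-PD-1 groups overlapped. Group means descended from 929 ± 100.4 TPM after anti-PD-1 through 886 ± 122 TPM after IgG1 and 618 ± 89.9 TPM after DOX/anti-PD-1 to 323 ± 39.5 TPM after DOX/IgG1. These values are for the whole gene and do not tell the spliced from the unspliced form. Between the doxorubicin arms, Xbp1 was higher with anti-PD-1 by a log2 fold change of 0.93 (SE 0.23, 95% confidence interval 0.41 to 1.45), with 3 of 3 tumors above all DOX/IgG1 tumors, under both other scalings as well. The difference reached the smallest exact permutation p (0.1) and ranked 37 by p among 13946 genes tested, but did not pass the correction over all genes (limma adjusted p = 0.988). Between DOX/IgG1 and IgG1 tumors the log2 fold change was -1.45 (SE 0.23, lower in 3 of 3 tumors, limma adjusted p = 0.306), rank 7 of 13874. This difference passed the limits without DOX/IgG1 replicate 1 (-1.41, limma adjusted p = 0.0706), when 122 genes in all were called. It also passed with all 12 tumors in one fit (limma adjusted p = 0.0367), when 7 genes in all were called. Over the remaining alternatives its adjusted p lay between 0.166 and 0.860. In bulk tumors, fewer cells of a type that expresses a gene and less RNA of it per cell cannot be told apart.

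Hspa5 (ENSMUSG00000026864, chromosome 2, 34771970 to 34777547, plus strand) encodes BiP, the main Hsp70 chaperone of the ER and the usual readout of the response. Its level was 1957, 2498 and 2899 TPM with IgG1, 1546, 2439 and 1552 TPM with anti-PD-1, 1615, 1295 and 1189 TPM with DOX/IgG1 and 1908, 2610.1 and 1309.6 TPM with DOX/anti-PD-1. The DOX/IgG1 tumors lay below all IgG1 tumors, whereas the DOX/anti-PD-1 tumors spread from the DOX/IgG1 range in replicate 3 to the upper IgG1 range in replicate 2. Hsp90b1 (ENSMUSG00000020048, chromosome 10, 86690209 to 86705509, minus strand) encodes GRP94, the Hsp90 chaperone of the ER. It reached 1564, 2309.9 and 3394 TPM with IgG1, 2443, 2422 and 1889.7 TPM with anti-PD-1, 1735, 1352 and 1450.0 TPM with DOX/IgG1 and 2354, 2239.5 and 1402 TPM with DOX/anti-PD-1. For Hsp90b1 the DOX/IgG1 tumors overlapped with IgG1 replicate 1 but lay below all anti-PD-1 tumors, and DOX/anti-PD-1 replicates 1 and 2 lay above them with replicate 3 inside their range. Group means were 2451 ± 473 TPM (IgG1), 1943 ± 651 TPM (DOX/anti-PD-1), 1846 ± 514 TPM (anti-PD-1) and 1367 ± 222 TPM (DOX/IgG1) for Hspa5, and 2423 ± 920.3 TPM (IgG1), 2252 ± 314 TPM (anti-PD-1), 1999 ± 520.1 TPM (DOX/anti-PD-1) and 1512 ± 199 TPM (DOX/IgG1) for Hsp90b1, where neighbors in each order overlapped. Between the doxorubicin arms the log2 fold change was 0.46 (SE 0.33) for Hspa5 and 0.37 (SE 0.31) for Hsp90b1, within the spread between tumors, with exact permutation p-values of 0.2 and 0.3. Without DOX/anti-PD-1 replicate 3 these differences were 0.72 and 0.61, and without replicate 2 they were 0.22 and 0.27, and that of Hsp90b1 was 0.24 without replicate 1.

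Sdf2l1 and Dnajb9 encode cochaperones that work with BiP. Sdf2l1 (ENSMUSG00000022769, chromosome 16, 17130138 to 17132383, minus strand) was at 69.2, 61.0 and 57.4 TPM with IgG1, 28.8, 76.4 and 68.2 TPM with anti-PD-1, 12.6, 30.3 and 37.6 TPM with DOX/IgG1 and 52.1, 90.1 and 25.2 TPM with DOX/anti-PD-1. The DOX/IgG1 tumors lay below all IgG1 tumors, and DOX/anti-PD-1 replicate 3 lay in their range while replicates 1 and 2 lay above it. The means were 62.5 ± 6.08 TPM (IgG1), 57.8 ± 25.4 TPM (anti-PD-1), 55.8 ± 32.6 TPM (DOX/anti-PD-1) and 26.8 ± 12.8 TPM (DOX/IgG1), and neighbors in this order overlapped. Its log2 fold change between the doxorubicin arms was 0.98, in size the highest of the 10 genes under the deposited scaling, but with an SE of 0.53 and an exact permutation p of 0.3, and it was 0.53 without DOX/IgG1 replicate 1 and 0.55 without DOX/anti-PD-1 replicate 2. Dnajb9 (ENSMUSG00000014905, chromosome 12, 44205559 to 44210326, minus strand), the BiP cochaperone ERdj4, was at 126, 97.1 and 122 TPM with IgG1, 135, 149 and 169 TPM with anti-PD-1, 103, 72.3 and 67.8 TPM with DOX/IgG1 and 85.2, 92.8 and 42.7 TPM with DOX/anti-PD-1. It was the only gene of the 10 for which all 3 anti-PD-1 tumors lay above every other tumor, and both doxorubicin arms overlapped with each other. Mean levels were 151 ± 17.0 TPM (anti-PD-1), 115 ± 15.8 TPM (IgG1), 81.1 ± 19.3 TPM (DOX/IgG1) and 73.6 ± 27.0 TPM (DOX/anti-PD-1), and the IgG1 and DOX/IgG1 tumors overlapped as well. Dnajb9 was also the only one with a lower mean in DOX/anti-PD-1 than in DOX/IgG1 tumors (-0.19, SE 0.34), a sign that both other scalings kept and that turned without DOX/anti-PD-1 replicate 3 (0.16). It was -0.0067 without DOX/IgG1 replicate 1, -0.31 without DOX/IgG1 replicate 3, -0.33 without DOX/anti-PD-1 replicate 1 and -0.40 without DOX/anti-PD-1 replicate 2.

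**Figure D1:**
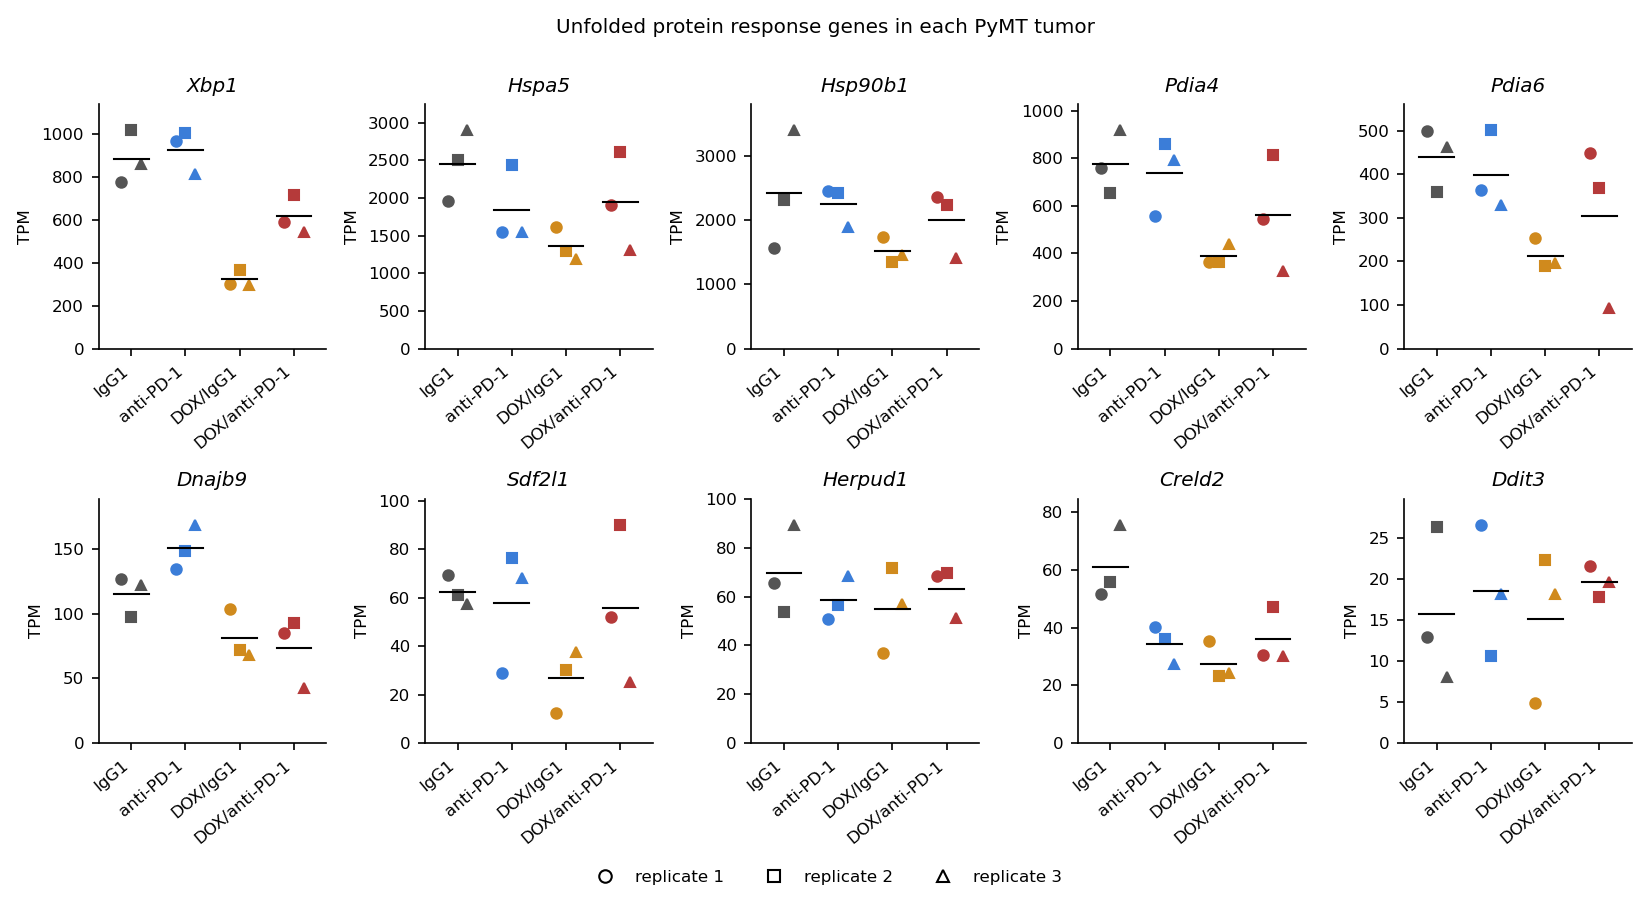
TPM of each of the 10 genes on a linear axis from 0, with 1 panel per gene, 1 point per tumor (shape gives the replicate) and a line at the mean of each treatment group. For Xbp1 the DOX/IgG1 tumors (297 to 368 TPM) sit below the DOX/anti-PD-1 tumors (544 to 718 TPM), and for Pdia6 DOX/anti-PD-1 replicate 3 (92.9 TPM) is the lowest of all tumors.

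Pdia4 and Pdia6 encode protein disulfide isomerases, which form and rearrange disulfide bonds of proteins in the ER. Pdia4 (ENSMUSG00000025823, chromosome 6, 47796141 to 47813430, minus strand) was at 759.9, 653 and 918 TPM with IgG1, 556, 859.5 and 795 TPM with anti-PD-1, 366, 364 and 440.1 TPM with DOX/IgG1 and 544, 813 and 327 TPM with DOX/anti-PD-1. All DOX/IgG1 tumors were below all antibody-only tumors, and DOX/anti-PD-1 tumors ran from below the DOX/IgG1 range (replicate 3) to within the IgG1 range (replicate 2). Pdia6 (ENSMUSG00000020571, chromosome 12, 17266545 to 17284770, plus strand) was at 499, 359 and 461 TPM with IgG1, 364, 501 and 330.0 TPM with anti-PD-1, 253, 189 and 196 TPM with DOX/IgG1 and 449, 368 and 92.9 TPM with DOX/anti-PD-1. Its order was alike, except that DOX/anti-PD-1 replicate 3 was the lowest of the 12 tumors by a wide margin while replicates 1 and 2 lay inside the range of the antibody-only tumors. Means of Pdia4 were 777 ± 134 TPM (IgG1), 737 ± 159.8 TPM (anti-PD-1), 562 ± 243 TPM (DOX/anti-PD-1) and 390.0 ± 43.3 TPM (DOX/IgG1), and those of Pdia6 were 439.8 ± 72.4 TPM (IgG1), 398 ± 90.3 TPM (anti-PD-1), 303 ± 187 TPM (DOX/anti-PD-1) and 213 ± 35.2 TPM (DOX/IgG1), and only the antibody-only groups lay apart from DOX/IgG1. Between the doxorubicin arms the log2 fold changes were 0.43 (SE 0.33) and 0.24 (SE 0.53), within the spread between tumors. The sign for Pdia6, the same under both other scalings, was decided by single tumors, with 0.94 without DOX/anti-PD-1 replicate 3, -0.19 without replicate 1 and -0.042 without replicate 2, and the value was 0.37 without DOX/IgG1 replicate 1. That of Pdia4 stayed positive, at 0.12 without DOX/anti-PD-1 replicate 2 and 0.77 without replicate 3.

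Creld2 (ENSMUSG00000023272, chromosome 15, 88819646 to 88826683, plus strand) encodes an ER-resident and secreted protein with a role in disulfide bond formation, and its promoter holds the ERSE shown above. It was at 51.5, 55.7 and 75.6 TPM with IgG1, 40.1, 36.0 and 27.3 TPM with anti-PD-1, 35.4, 23.1 and 24.1 TPM with DOX/IgG1 and 30.6, 47.2 and 30.3 TPM with DOX/anti-PD-1. The IgG1 tumors held the highest levels and lay above all tumors of the other 3 groups, and these overlapped with each other. Its means were 61.0 ± 12.9 TPM (IgG1), 36.0 ± 9.66 TPM (DOX/anti-PD-1), 34.5 ± 6.53 TPM (anti-PD-1) and 27.5 ± 6.84 TPM (DOX/IgG1). Its log2 fold change was 0.37 (SE 0.30) between the doxorubicin arms, with 0.17 without DOX/anti-PD-1 replicate 2 and 0.56 without DOX/IgG1 replicate 1. Between anti-PD-1 and IgG1 tumors Creld2 had a log2 fold change of -0.80 (SE 0.26, lower in 3 of 3 tumors, limma adjusted p = 0.996).

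Herpud1 (ENSMUSG00000031770, chromosome 8, 94386438 to 94395377, plus strand) encodes a membrane protein of the complex that moves misfolded proteins out of the ER for degradation. Its level was 65.6, 53.6 and 89.4 TPM with IgG1, 50.8, 56.5 and 68.6 TPM with anti-PD-1, 36.8, 71.5 and 56.9 TPM with DOX/IgG1 and 68.4, 69.8 and 51.1 TPM with DOX/anti-PD-1. All 4 groups overlapped with each other, with means of 69.5 ± 18.2 TPM (IgG1), 63.1 ± 10.4 TPM (DOX/anti-PD-1), 58.6 ± 9.06 TPM (anti-PD-1) and 55.0 ± 17.4 TPM (DOX/IgG1). It is the gene of the 10 with matches to ERSE-II and to the C/EBP-ATF motif. Its log2 fold change between the doxorubicin arms, 0.23 (SE 0.30) and positive under both other scalings, changed sign without DOX/IgG1 replicate 1 (-0.029). It was 0.44 without DOX/IgG1 replicate 2, 0.15 without DOX/anti-PD-1 replicate 2 and 0.37 without DOX/anti-PD-1 replicate 3.

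Ddit3 (ENSMUSG00000025408, chromosome 10, 127290774 to 127296288, plus strand) encodes CHOP, a transcription factor induced downstream of PERK and ATF4. By mean level it was the least abundant of the 10 genes, at 13.0, 26.3 and 8.08 TPM with IgG1, 26.6, 10.7 and 18.2 TPM with anti-PD-1, 4.86, 22.4 and 18.2 TPM with DOX/IgG1 and 21.7, 17.8 and 19.6 TPM with DOX/anti-PD-1. Levels differed widely within the IgG1, anti-PD-1 and DOX/IgG1 groups, the DOX/anti-PD-1 tumors were close together, and all groups overlapped. Means were 19.7 ± 1.93 TPM (DOX/anti-PD-1), 18.5 ± 7.99 TPM (anti-PD-1), 15.8 ± 9.43 TPM (IgG1) and 15.1 ± 9.15 TPM (DOX/IgG1), and DOX/IgG1 replicate 1 was the lowest tumor. Between the doxorubicin arms the log2 fold change of 0.58 (SE 0.51, the same sign under both other scalings) rested on that tumor and was -0.038 without it and 0.96 without DOX/IgG1 replicate 2, and against IgG1 the DOX/IgG1 difference of -0.13, which kept its sign under both scalings, turned to 0.48 without it and to 0.29 without IgG1 replicate 2.

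The comparison of the 2 doxorubicin arms asks what PD-1 blockade added to chemotherapy. In every DOX/anti-PD-1 tumor Xbp1 exceeded the highest DOX/IgG1 value, whereas Hspa5, Hsp90b1, Sdf2l1, Pdia4 and Pdia6 did so in replicates 1 and 2 but not in replicate 3. Of the 10 genes, 9 had higher means with anti-PD-1 and 1 (Dnajb9) a lower one, with the same counts under both other scalings, and their median log2 fold change was 0.40 beside -0.037 for all genes tested (turned to 0.0031 when TPM were rescaled to the same sum). None of the 10 was called, and limma called 0 of 13946 genes in all (0%), with 655 (4.7%) at an unadjusted p below 0.05, among them Xbp1 as 1 of the 10. Over all genes limma called 3 under either other scaling (Bpifa2, Smr3a and Hist1h3a), 4 without DOX/IgG1 replicate 1 and 1 without DOX/anti-PD-1 replicate 3, and none of these was among the 10. Xbp1 was likewise the only 1 of the 10 for which the groups lay apart with higher values in DOX/anti-PD-1, a pattern seen in 4.27% of all genes, and 0 of the 10 lay apart with lower values, as 5.95% of all genes did. The summed TPM of the 10 genes was 4465, 3789 and 3777 in DOX/IgG1 and 6107, 7067 and 3844 in DOX/anti-PD-1 tumors. By this sum DOX/anti-PD-1 replicate 3 lay within the DOX/IgG1 range, and replicates 1 and 2 within that of the IgG1 tumors (5885, 7133 and 8885 TPM). Run without replicate 3, a setting chosen after seeing the data for the count of separated groups, all 10 means were higher, the median was 0.66, 6 genes had an unadjusted p below 0.05, as did 5.8% of all genes in that fit, and 6 (Xbp1, Hspa5, Hsp90b1, Pdia4, Pdia6 and Sdf2l1) lay apart, where 10.8% of all genes did, while still 0 of the 10 were called. Without DOX/IgG1 replicate 1, 3 lay apart (Xbp1, Hspa5 and Creld2, against 9.08% of all genes) and 7 means were higher, and without DOX/anti-PD-1 replicate 2 the median was 0.19.

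Without doxorubicin, PD-1 blockade was compared with its control antibody. Creld2 and Dnajb9 were the 2 genes whose levels lay apart between anti-PD-1 and IgG1 tumors, while the other 8 overlapped. Creld2 was lower (-0.80, SE 0.26) and Dnajb9 higher (0.39, SE 0.22) in 3 of 3 anti-PD-1 tumors, with the same signs under each scaling. Of the 10 genes, 3 had higher and 7 lower means under each scaling, with a median of -0.12 beside -0.026 for all genes (turned to 0.0067 by median-of-ratios scaling). No gene was called by limma among 13692 tested (0%), 630 genes (4.6%) had an unadjusted p below 0.05, and Creld2 was 1 of these, but not without IgG1 replicate 3 or without anti-PD-1 replicate 3. Of all genes 4 were called without IgG1 replicate 1, 2 without IgG1 replicate 2 and 1 without anti-PD-1 replicate 2. Groups lay apart with higher values in 3.64% and with lower values in 6.24% of all genes, and in 1 of the 10 each. The median was -0.22 without IgG1 replicate 2, -0.21 without anti-PD-1 replicate 2, -0.059 without IgG1 replicate 3 and -0.058 without anti-PD-1 replicate 1. The difference between the median of the 10 and that of all genes was -0.094, and it turned to 0.0054 without IgG1 replicate 1, when the median of all genes was -0.13. It was -0.23 without IgG1 replicate 2 and -0.042, -0.19 and -0.052 without anti-PD-1 replicates 1, 2 and 3, respectively.

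Doxorubicin with the control antibody was set against the control antibody alone. The means of all 10 genes were lower in DOX/IgG1 than in IgG1 tumors under each scaling, with log2 fold changes of -1.45 for Xbp1, -1.32 for Sdf2l1, -1.12 for Creld2, -1.04 for Pdia6, -0.98 for Pdia4, -0.84 for Hspa5, -0.62 for Hsp90b1, -0.51 for Dnajb9, -0.35 for Herpud1 and -0.13 for Ddit3. When 1 tumor was left out only the sign of Ddit3 changed, but sizes moved for others as well. Hsp90b1 was -0.34 and Herpud1 -0.16 without IgG1 replicate 3, Herpud1 was -0.091 and Sdf2l1 -0.87 without DOX/IgG1 replicate 1, and Herpud1 was -0.56 without DOX/IgG1 replicate 2. Where its sign held, Ddit3 was -0.50 without IgG1 replicate 3, -0.51 without DOX/IgG1 replicate 2 and -0.37 without DOX/IgG1 replicate 3. Xbp1, Sdf2l1, Creld2, Pdia6, Pdia4 and Hspa5 lay fully apart, each with 3 of 3 tumors lower, while 4.64% of all genes lay apart with lower and 9.31% with higher values. The same 6 had an unadjusted p below 0.05, as did 1073 genes in all (7.73%). None of the 10 was called, with limma adjusted p-values from 0.306 (Xbp1, -1.45) to 0.969 (Ddit3, -0.13). The 5 genes called among 13874 (0.036%) were Bpifa2 and Smr3a, which are on the list of salivary markers, and Saa1, Saa2 and Hist1h2af, named after their values were seen. Bpifa2 and Smr3a were at 0 in all IgG1 tumors and passed the expression minimum only through the DOX/IgG1 tumors, in which they were high, so their selection was not independent of the test. Without any 1 IgG1 tumor or without DOX/IgG1 replicate 3 limma called 0, without DOX/IgG1 replicate 2 it called 2 and without DOX/IgG1 replicate 1 it called 122. The median of the 10 genes was -0.91, and that of all genes was 0.12, which median-of-ratios scaling moved to 0.014. The difference of these medians was -1.03 as deposited and -1.04 after this scaling. Hsp90b1 also lay apart under both other scalings. Of all genes, 7.22% lay apart with lower values after median-of-ratios scaling and 5.95% with TPM rescaled to the same sum. Starting size, schedule and first antibody dose differed between these groups as well and cannot be told apart from doxorubicin.

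Doxorubicin with anti-PD-1 was compared with anti-PD-1 alone, under the same differences of size, schedule and dose. Here Xbp1 (-0.59, SE 0.24) and Dnajb9 (-1.10, SE 0.31) were lower in 3 of 3 tumors with doxorubicin, with limma adjusted p-values of 0.540 and 0.479, and the remaining 8 genes overlapped. Limma called 0 of 13736 genes (0%), with 1185 (8.63%) at an unadjusted p below 0.05, among them Xbp1 and Dnajb9. It called 4 without DOX/anti-PD-1 replicate 2 and 1 each without replicate 1, without replicate 3 and without anti-PD-1 replicate 1. These were also the 2 of the 10 that lay apart with lower values, as 3.84% of all genes did, and 0 of the 10 were among the 11.1% that lay apart with higher values. Means were higher for 4 and lower for 6 of the 10, and for 1 and 9 under median-of-ratios scaling, which turned Hspa5 (0.052 to -0.074), Herpud1 (0.10 to -0.023) and Creld2 (0.048 to -0.075). The median was -0.16 and that of all genes 0.11, moved to -0.0079 by this scaling, so that their differences were -0.26 and -0.27. Without DOX/anti-PD-1 replicate 3 the median turned to 0.10 with 7 means higher, but that of all genes was 0.13, so that their difference kept its sign and shrank to -0.026. The median of the 10 was -0.42 without replicate 2, -0.24 without replicate 1 and -0.34 without anti-PD-1 replicate 1, with differences of -0.48, -0.39 and -0.44.

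The comparisons of the doxorubicin arms with each other and of DOX/IgG1 with IgG1 share the DOX/IgG1 tumors, so opposite signs in the pair are no separate observations. Signs were opposite for 9 of the 10 genes under each scaling, as for Xbp1 (0.93 and -1.45), and alike for Dnajb9 (-0.19 and -0.51). Whether the antibody difference itself depended on doxorubicin was tested as an interaction over all 12 tumors. It was positive, with a higher anti-PD-1 difference under doxorubicin, for 9 of the 10 genes under each scaling, with a median of 0.49 beside -0.0077 for all genes (turned to 0.019 when TPM were rescaled to the same sum). Creld2 (1.17, SE 0.39) and Xbp1 (0.86, SE 0.32) were at an unadjusted p below 0.05, as were 694 of 14735 genes (4.71%), and neither passed the correction (limma adjusted p = 0.993 for both). The interaction called 0 of the 10 and 1 gene in all (0.00679%), Bpifa2 (limma adjusted p = 0.0909). This call was lost under both other scalings (adjusted p = 0.104 and 0.111), with a pseudocount of 0.1, with a minimum of 5 TPM, with the replicate block and without any 1 tumor other than DOX/IgG1 replicate 1. Without DOX/anti-PD-1 replicate 3 the median was 0.91 and 6 of the 10 had an unadjusted p below 0.05, with 0 of them called, beside a median of 0.0065 and 5.45% at an unadjusted p below 0.05 for all genes in that fit.

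**Figure D2:**
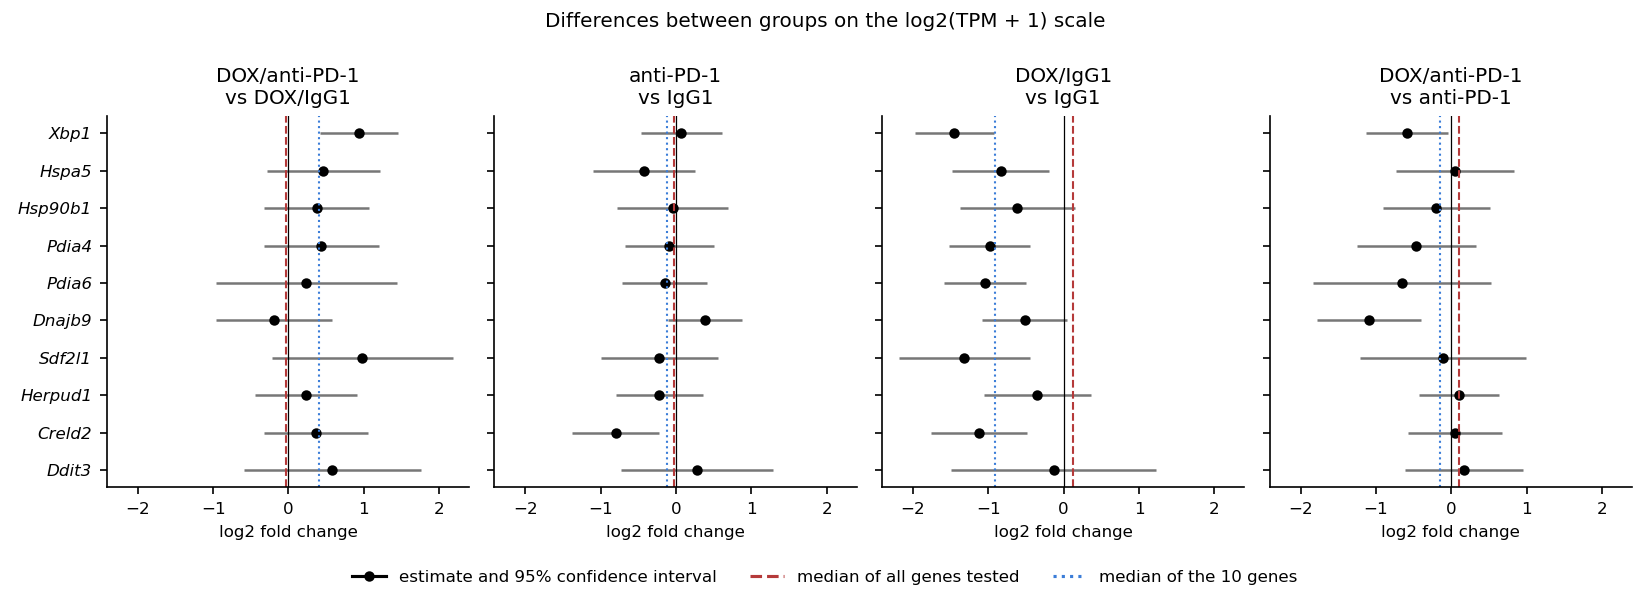
Log2 fold change of each of the 10 genes with its 95% confidence interval in the 4 pairwise comparisons, with a red dashed line at the median of all genes tested and a blue dotted line at the median of the 10. The 10 genes lie left of 0 in DOX/IgG1 against IgG1 tumors (median -0.91) and, except for Dnajb9, right of 0 between the doxorubicin arms (median 0.40), under each scaling, and 3 signs in the panel of doxorubicin added to anti-PD-1 turn with median-of-ratios scaling.

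Other genes of the response were described from 4 lists. Beside the counts for these lists, 7.73% of all genes had an unadjusted p below 0.05 between DOX/IgG1 and IgG1 tumors and 4.64% lay apart with lower values, with a median of 0.12, and between the doxorubicin arms these were 4.7%, 5.95% and -0.037. Between these arms 4.27% of all genes lay apart with higher values. Apart and higher were 2 of 14 genes on the sensor list and 1 of 26 chaperones. So were 3 of 20 degradation genes and 1 of 24 PERK-ATF4 targets. Apart and lower were 2 chaperones and 0 genes on the other lists. An unadjusted p below 0.05 was reached by 1 higher and 1 lower chaperone and by 2 higher degradation genes. Among sensors, activating proteases and transcription factors, 14 of 16 genes could be tested, and limma called 0 between the doxorubicin arms and 0 between DOX/IgG1 and IgG1 tumors, with 0 and 2 at an unadjusted p below 0.05 (the latter 0 without DOX/IgG1 replicate 3). Ern1, which encodes IRE1, was at 17.3, 28.6 and 45.0 TPM with DOX/IgG1 and 18.6, 38.4 and 66.3 TPM with DOX/anti-PD-1. Eif2ak3, which encodes PERK, was at 49.3, 61.3 and 51.2 TPM with DOX/IgG1 and 52.2, 73.1 and 24.0 TPM with DOX/anti-PD-1, and these groups overlapped for both genes. The log2 fold changes of Atf6 (-0.0077) and Atf4 (0.16) between these arms were within the spread between tumors. Creb3l1, an ER-anchored transcription factor related to ATF6, had the highest log2 fold change of the list between the doxorubicin arms, with 4.30, 5.09 and 4.61 TPM against 14.9, 8.23 and 6.44 TPM (0.86, SE 0.43), and Atf6b the lowest (-0.87, SE 0.56). The median of the list was 0.11 between the doxorubicin arms and -0.11 between DOX/IgG1 and IgG1 tumors, with the same signs under both scalings and without any 1 tumor, and 8 of 14 genes higher and 11 of 14 lower, respectively. These medians were 0.015 without DOX/anti-PD-1 replicate 2 and -0.025 without DOX/IgG1 replicate 1.

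ER chaperones, disulfide isomerases and cochaperones outside the 10 genes were mostly lower in DOX/IgG1 than in IgG1 tumors. All 26 genes were tested, and 22 had lower means (23 under median-of-ratios scaling and 23 under the other), 8 of them at an unadjusted p below 0.05 (5 without DOX/IgG1 replicate 3) and 9 apart and lower, beside 7.73% and 4.64% of all genes, with a median of -0.44 and 0 called by limma. Their summed level was 9837, 9237 and 9547 TPM with IgG1, 7822, 8499 and 8249.8 TPM with anti-PD-1, 6765, 5864 and 5640.3 TPM with DOX/IgG1 and 7424, 8918 and 4156 TPM with DOX/anti-PD-1. The lectin chaperone Calr was at 3543, 2676 and 3151 TPM with IgG1, 1805, 1722 and 1657 TPM with DOX/IgG1 and 2204, 3156 and 925 TPM with DOX/anti-PD-1. The isomerase P4hb was at 797, 985 and 851 TPM with IgG1, 444, 474 and 336 TPM with DOX/IgG1 and 676, 869 and 341 TPM with DOX/anti-PD-1. For this sum and both genes the DOX/IgG1 tumors lay below the IgG1 tumors. Manf, an ER protein that can be secreted, was at 591, 441 and 566 TPM with IgG1, 269, 219.5 and 251 TPM with DOX/IgG1 and 352, 492 and 138 TPM with DOX/anti-PD-1. It likewise lay apart, and DOX/anti-PD-1 replicate 3 was within or below the DOX/IgG1 range for the sum and all 3 genes. Hyou1, a large Hsp70-type chaperone, had 88.3, 68.8 and 66.8 TPM with DOX/IgG1 and 113, 150.5 and 87.5 TPM with DOX/anti-PD-1. Its log2 fold change was 0.62 (SE 0.26, limma adjusted p = 0.988), with 2 of 3 tumors above all DOX/IgG1 tumors. Between these arms Pdia5 was at the upper end of the list (0.73, SE 0.42) and the reductase cochaperone Dnajc10 at the lower end (-0.63, SE 0.21), and 17 of 26 means were higher with a median of 0.16, positive under both scalings but -0.042 with 11 higher without DOX/anti-PD-1 replicate 2. It was 0.37 without replicate 3 and 0.027 without replicate 1.

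In the list for ER-associated degradation, 16 of 20 genes were lower in DOX/IgG1 than in IgG1 tumors (17 under median-of-ratios scaling and 16 under the other), 8 at an unadjusted p below 0.05 and 11 apart and lower, beside 7.73% and 4.64% of all genes, with a median of -0.48 and 0 called by limma. Their summed level was 2555, 2832 and 2659 TPM with IgG1, 2767, 2468 and 2533 TPM with anti-PD-1, 1841, 1915 and 1776 TPM with DOX/IgG1 and 2146, 2293 and 1533 TPM with DOX/anti-PD-1, so that the DOX/IgG1 tumors lay below all antibody-only tumors. Edem1, which selects misfolded glycoproteins for degradation, was at 154, 248 and 172 TPM with IgG1 and 92.4, 106 and 101 TPM with DOX/IgG1. Sel1l and Syvn1 encode the core of the HRD1 ubiquitin ligase complex. Sel1l was at 387, 423 and 439 TPM with IgG1 and 227, 278 and 281 TPM with DOX/IgG1. Syvn1 was at 29.0, 27.7 and 38.3 and at 25.2, 21.4 and 18.5 TPM, respectively, and for all 3 genes these groups lay apart. Derl3, an XBP1 target that is high in secretory cells, was at 14.2, 12.3 and 16.7 TPM with IgG1, 3.73, 12.0 and 15.9 TPM with anti-PD-1, 0, 5.10 and 2.31 TPM with DOX/IgG1 and 17.1, 7.32 and 6.45 TPM with DOX/anti-PD-1. The DOX/IgG1 tumors held the lowest values apart from anti-PD-1 replicate 1, and between the doxorubicin arms Derl3 was at the upper end of the list (1.93, SE 0.71, limma adjusted p = 0.988, higher in 3 of 3 tumors) and Erlec1 at the lower end (-0.52, SE 0.30). The list's median between these arms was 0.081, with 12 of 20 genes higher under each scaling, and -0.11 with 9 higher without DOX/anti-PD-1 replicate 2. Without replicate 3 it was 0.27.

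Among targets of PERK and ATF4, higher and lower means were mixed. Of 22 genes tested between DOX/IgG1 and IgG1 tumors, 14 had higher and 8 lower means, but 9 and 13 under median-of-ratios scaling, with a median of 0.060 that this scaling turned to -0.055 and leaving out DOX/IgG1 replicate 1 to -0.029. Between the doxorubicin arms 11 of 24 were higher (13 when TPM were rescaled to the same sum), with a median of -0.029 that this scaling turned to 0.0091 and that lay between -0.10 and 0.13 when single tumors were left out. Limma called 0 genes of the list, with 2 of 22 and 1 of 24 at an unadjusted p below 0.05 in these comparisons, and 1 gene, Stc2, in each of them without DOX/IgG1 replicate 1. The summed level of the list was 1189, 1204 and 1088 TPM with IgG1, 973, 979 and 1161 TPM with anti-PD-1, 1311, 1488 and 1474 TPM with DOX/IgG1 and 1101, 1190.1 and 1089 TPM with DOX/anti-PD-1, with all DOX/IgG1 tumors above every other tumor. This rested on Stc2, since without it the sums were 1107, 1109 and 1004 TPM with IgG1, 893, 941 and 1132 TPM with anti-PD-1, 1283, 1073 and 949 TPM with DOX/IgG1 and 1028, 1117 and 989 TPM with DOX/anti-PD-1, and the groups overlapped. Atf3, a transcription factor, was at 23.4, 20.2 and 17.5 TPM with DOX/IgG1 and 36.4, 11.7 and 2.56 TPM with DOX/anti-PD-1. Trib3, a pseudokinase, was at 11.7, 3.74 and 2.96 TPM with DOX/IgG1 and 4.17, 5.45 and 5.84 TPM with DOX/anti-PD-1. These arms overlapped for both genes, and also for the asparagine synthetase gene Asns, at 29.1, 35.7 and 41.9 TPM with DOX/IgG1 and 38.8, 27.2 and 26.2 TPM with DOX/anti-PD-1. Chac1, which degrades glutathione, was at or below 4.18 TPM in every tumor and listed at 0 in 4 of them. The amino acid transporter gene Slc7a5 had the highest log2 fold change between these arms (0.79, SE 0.46) and Stc2, which encodes a secreted glycoprotein, the lowest (-1.18, SE 0.94). Stc2 was at 82.5, 94.6 and 84.1 TPM with IgG1, 80.0, 37.7 and 29.2 TPM with anti-PD-1, 28.2, 415 and 525 TPM with DOX/IgG1 and 72.3, 72.6 and 100.3 TPM with DOX/anti-PD-1. DOX/IgG1 replicates 2 and 3 were far above all other tumors and replicate 1 was the lowest.

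In the remaining comparisons the medians of the sensor, chaperone, degradation and PERK-ATF4 lists were -0.17, -0.17, -0.093 and -0.062 between anti-PD-1 and IgG1 tumors, and the last of these turned to 0.026 without IgG1 replicate 2 and 0.0027 without anti-PD-1 replicate 1. For doxorubicin added to anti-PD-1, where the median of all genes was 0.11, the list medians were -0.044, -0.11, -0.29 and 0.26. Apart and higher were 1 of 14, 1 of 26, 0 of 20 and 4 of 24 genes of these lists, beside 11.1% of all genes. Apart and lower were 0, 2, 4 and 0, beside 3.84% of all genes. Without DOX/anti-PD-1 replicate 3, the medians of the sensor and chaperone lists turned to 0.17 and 0.062, and the sensor list also turned without DOX/anti-PD-1 replicate 1 (0.16) and without anti-PD-1 replicates 2 (0.039) and 3 (0.066).

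**Figure D3:**
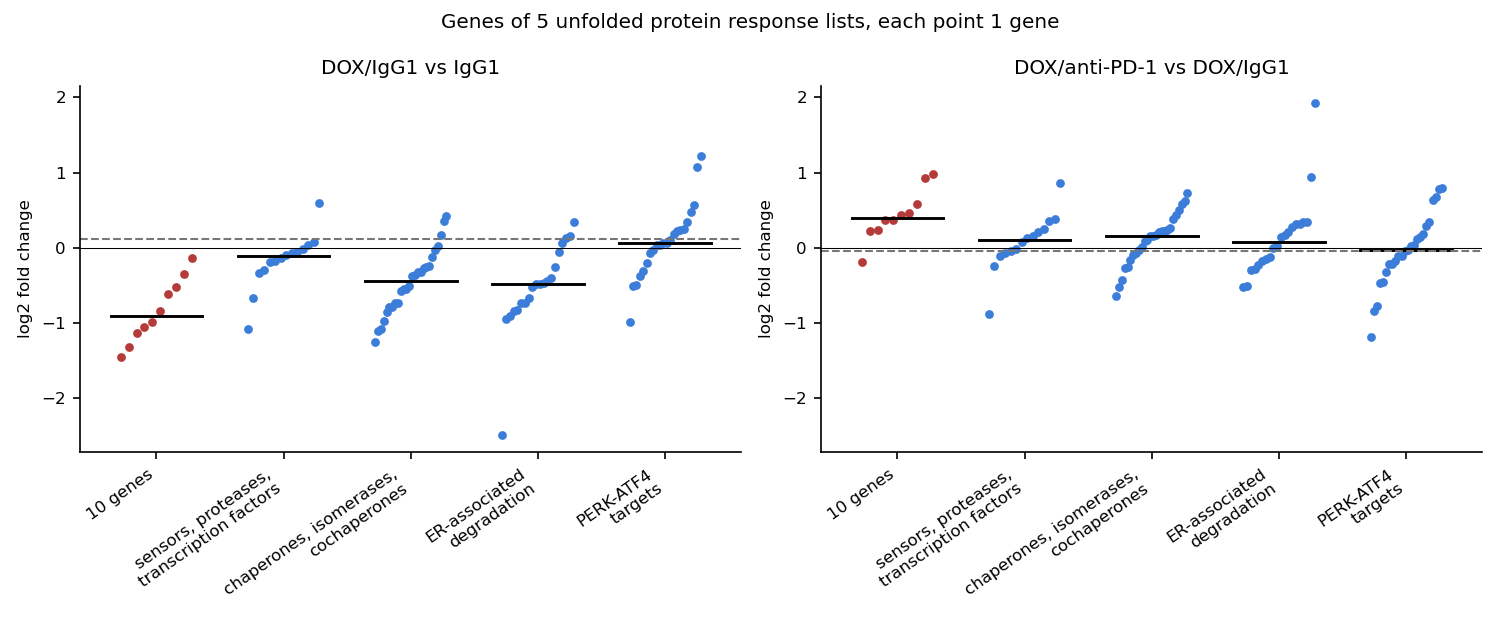
Log2 fold changes of the genes of 5 lists (1 point per gene, black line at the list's median, gray dashed line at the median of all genes) in DOX/IgG1 against IgG1 tumors on the left and between the doxorubicin arms on the right. On the left the medians are -0.91 for the 10 genes, -0.44 for chaperones, -0.48 for degradation and 0.060 for PERK-ATF4 targets, the last of which turns negative with median-of-ratios scaling, and on the right they are 0.40, 0.16, 0.081 and -0.029, the last of which turns positive when TPM are rescaled to the same sum.

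Across the 12 tumors, the 9 other genes were related to Hspa5 on the log2(TPM + 1) scale. Creld2 followed it most closely (Pearson r = 0.84, permutation p = 0.000730, adjusted over the 9 relations 0.00657), with a Spearman rho of 0.86 (permutation p = 0.000680, adjusted 0.00612). Hsp90b1 (r = 0.80, permutation p = 0.00223), Pdia4 (r = 0.79, p = 0.00332) and Pdia6 (r = 0.74, p = 0.00387) came next, each with an adjusted p of 0.00871. Their rho values were 0.66, 0.79 and 0.75 (permutation p = 0.0238, 0.00349 and 0.00708, adjusted 0.0517, 0.0157 and 0.0212). Xbp1 (r = 0.67, permutation p = 0.0186, adjusted 0.0334, and rho = 0.62, p = 0.0376, adjusted 0.0564) and Sdf2l1 (r = 0.64, p = 0.0253, adjusted 0.0379, and rho = 0.64, p = 0.0287, adjusted 0.0517) were below 0.05 by r but, like Hsp90b1, not by rho after adjustment. Under median-of-ratios scaling the same 6 genes were below 0.05 by r and also by rho, with adjusted permutation p-values for rho of 0.00661 for Hsp90b1, 0.0182 for Xbp1 and 0.0309 for Sdf2l1. For Dnajb9 (r = 0.47, rho = 0.39), Herpud1 (r = 0.37, rho = 0.28) and Ddit3 (r = -0.26, rho = -0.40) the relation did not pass, with adjusted permutation p-values of 0.158, 0.272 and 0.414 for r and 0.238, 0.380 and 0.238 for rho. Leaving out the 2 tumors farthest from the median of Hspa5, IgG1 replicate 3 and DOX/anti-PD-1 replicate 2, gave r = 0.75 for Creld2, 0.72 for Hsp90b1, 0.71 for Pdia4, 0.76 for Pdia6, 0.70 for Xbp1, 0.58 for Sdf2l1, 0.53 for Dnajb9, -0.0042 for Herpud1 and -0.12 for Ddit3. Differences between treatment groups enter these coefficients and their p-values, since the 12 tumors were permuted regardless of group. With each tumor's deviation from its group mean in place of its level, r was 0.75 for Hsp90b1, 0.72 for Pdia4, 0.70 for Creld2, 0.68 for Pdia6, 0.63 for Dnajb9, 0.59 for Xbp1, 0.39 for Sdf2l1, 0.13 for Herpud1 and -0.49 for Ddit3. Creld2, Hsp90b1 and Pdia6 are the genes whose windows hold an ERSE as that of Hspa5 does, while Pdia4, Xbp1 and Sdf2l1, whose windows held none of the 4 motifs, were also related to it by r.

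**Figure D4:**
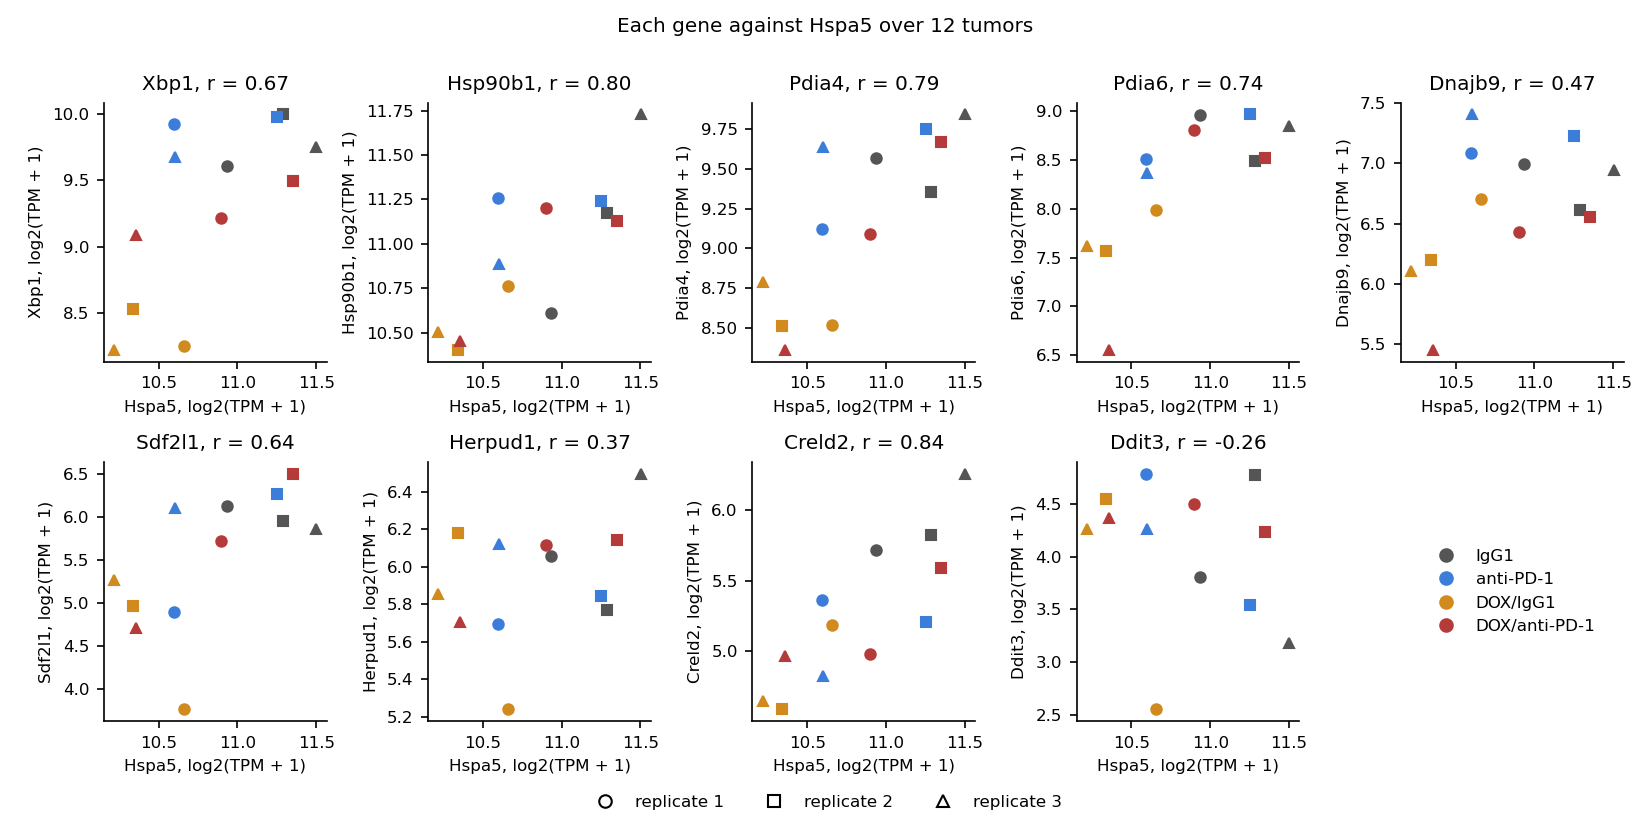
Log2(TPM + 1) of each of the 9 other genes against that of Hspa5, with 1 point per tumor (color gives the treatment group, shape the replicate). The points lie along an increasing line for Creld2 (r = 0.84), Hsp90b1 (r = 0.80) and Pdia4 (r = 0.79) and do not for Ddit3 (r = -0.26), with the same signs under median-of-ratios scaling.

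As a description, the genes outside the 10 whose log2(TPM + 1) over the 12 tumors was most like that of Xbp1, of 14725 genes compared, were Fam3c (r = 0.94), Mex3a (r = 0.94), Npnt (r = 0.93), Pdia5 (r = 0.93) and Col9a2 (r = 0.93). Pdia5, a disulfide isomerase, was at 5.90, 5.60 and 5.22 TPM with IgG1, 4.52, 5.57 and 5.01 TPM with anti-PD-1, 2.51, 2.32 and 2.24 TPM with DOX/IgG1 and 4.14, 4.89 and 4.70 TPM with DOX/anti-PD-1, so that, as for Xbp1, all DOX/IgG1 tumors lay below every other tumor. Npnt, which encodes an extracellular matrix protein, was at 102, 185 and 129 TPM with IgG1, 142, 218 and 193 TPM with anti-PD-1, 12.9, 41.2 and 36.7 TPM with DOX/IgG1 and 70.3, 122 and 42.1 TPM with DOX/anti-PD-1, and its DOX/IgG1 tumors were again the lowest. Most like Hspa5 were Lrrc8d (r = 0.91), Ndst1 (r = 0.90), Ceacam20 (r = 0.90), Ttc13 (r = 0.89) and Mtf1 (r = 0.89). Ttc13 was at 54.1, 77.6 and 80.6 TPM with IgG1, 59.2, 68.0 and 51.9 TPM with anti-PD-1, 55.1, 46.4 and 48.2 TPM with DOX/IgG1 and 76.0, 89.2 and 38.8 TPM with DOX/anti-PD-1, and DOX/anti-PD-1 replicate 2 was the highest and replicate 3 the lowest tumor.

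Markers of cell types were set beside the 10 genes. The summed level of 9 genes of milk secretion, most of it Csn3 (kappa-casein), was 7574, 4908 and 8647 TPM with IgG1, 6602, 10473 and 7538 TPM with anti-PD-1, 1034, 3302 and 2555 TPM with DOX/IgG1 and 6149.9, 8538 and 2987 TPM with DOX/anti-PD-1. All DOX/IgG1 tumors lay below all antibody-only tumors, and DOX/anti-PD-1 replicate 3 again lay within the DOX/IgG1 range with replicates 1 and 2 above it. Of 8 genes tested, 8 were lower in DOX/IgG1 than in IgG1 tumors (median -1.81, 4 at an unadjusted p below 0.05) and 8 higher in the DOX/anti-PD-1 than in the DOX/IgG1 group (median 1.69, 5 at an unadjusted p below 0.05), under both other scalings as well, with 0 called by limma, and without DOX/IgG1 replicate 2 the latter count was 7. Of all genes, 7.73% and 4.7% had an unadjusted p below 0.05 in these comparisons. The 5 with an unadjusted p below 0.05 were 3 without DOX/anti-PD-1 replicate 1 or 2. Csn2 and Csn1s2a were counted among the genes below 0.05 in both comparisons, and Wap between the doxorubicin arms. There they passed the expression minimum only through the group in which they were high, IgG1 and DOX/anti-PD-1, respectively. Their selection was therefore not independent of the test. Csn2, for example, was at 0.56, 0.21 and 0 TPM with DOX/IgG1. None of the 9 was at 0 in every tumor. Their part in the result for the unfolded protein response genes was not tested.

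Among 8 epithelial markers the most abundant was Epcam, at 938, 846 and 954 TPM with IgG1, 911, 712 and 757 TPM with anti-PD-1, 565, 522 and 418 TPM with DOX/IgG1 and 734, 920.1 and 468 TPM with DOX/anti-PD-1. It was lower in all DOX/IgG1 than in all antibody-only tumors, and in DOX/anti-PD-1 replicate 3 it lay inside the DOX/IgG1 range. The summed level of the 8 markers did not separate the doxorubicin arms, at 3959, 2829.6 and 3444 TPM with IgG1, 3137, 2467 and 2668 TPM with anti-PD-1, 2317, 3397 and 3905 TPM with DOX/IgG1 and 3330.0, 3110.3 and 2415 TPM with DOX/anti-PD-1. Of the 8, 7 had lower means and 1, Krt19, a higher mean in DOX/IgG1 than in IgG1 tumors under each scaling, and only Epcam and Cldn7 lay apart as deposited, where 4.64% of all genes lay apart with lower values. Means of 4 were higher and 4 lower between the doxorubicin arms (5 and 3 under both other scalings, 7 and 1 without DOX/anti-PD-1 replicate 3). Krt19, named after its values were seen, was at 847, 347 and 601 TPM with IgG1, 406, 255 and 265 TPM with anti-PD-1, 302, 1261 and 1801 TPM with DOX/IgG1 and 656, 421 and 779.9 TPM with DOX/anti-PD-1. All 8 were above 0 in every tumor. The part of epithelial content in the levels of the 10 genes was not tested.

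Salivary-type acinar markers, with Aqp5 as the most abundant, added up to 553, 709 and 678 TPM with IgG1, 708, 422 and 659 TPM with anti-PD-1, 376, 410.2 and 444 TPM with DOX/IgG1 and 493, 475 and 210.1 TPM with DOX/anti-PD-1, with 11 of 12 genes found and Smgc listed at 0 in all. By this sum the DOX/IgG1 tumors lay below the IgG1 tumors. Bpifa2 was listed at 14.4, 21.3 and 53.7 TPM in DOX/IgG1 tumors and at 0 in the other 9, and Smr3a at 16.6, 10.2 and 14.8 TPM in DOX/IgG1 tumors, at 2.76 TPM in anti-PD-1 replicate 3 and at 0 in the other 8. With DOX/IgG1 against IgG1, 8 salivary-type genes could be tested, and under each scaling 4 had higher and 4 lower means, 3 and 4 of them at an unadjusted p below 0.05, beside 7.73% of all genes. The 4 lower ones were Aqp5 (-0.66), Bhlha15 (-1.19), Dmbt1 (-3.37) and Pigr (-1.08), the last 3 named after their values were seen. Bpifa2 and Smr3a, which entered this comparison only through the DOX/IgG1 tumors, were called, but neither was with the replicate block, without any 1 IgG1 tumor or without DOX/IgG1 replicate 2 or 3, and Smr3a was not with a pseudocount of 0.1 or a minimum of 5 TPM. Prol1 and Pigr were called as well without DOX/IgG1 replicate 1. Plasma cell markers, with Sdc1, which epithelial cells also express, as the most abundant, added up to 82.4, 56.4 and 80.4 TPM with IgG1, 66.5, 72.6 and 63.4 TPM with anti-PD-1, 75.3, 95.1 and 114 TPM with DOX/IgG1 and 83.0, 107 and 81.4 TPM with DOX/anti-PD-1. Of the defining plasma cell genes, Tnfrsf17 was listed at 0 in every tumor and Mzb1 in every tumor but DOX/IgG1 replicate 1 (2.62 TPM). Only 8 of 11 genes of this list were found, without Ighm, Igha and Igkc. Of the rest, 2 named after their values were seen, Jchain was above 0 in 11 of 12 tumors, at 0, 7.32 and 14.7 TPM with DOX/IgG1 and 3.88, 1.47 and 1.52 TPM with IgG1, and Pou2af1 was at 0, 11.4 and 22.1 and 0, 0.790 and 3.94 TPM, respectively, and these groups overlapped. The part of salivary-type and plasma cells in the result was not tested.

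Sums of the basal and myoepithelial, leukocyte, fibroblast, endothelial, adipocyte and skeletal muscle lists overlapped between the doxorubicin arms and between DOX/IgG1 and IgG1 tumors. The antibody-only groups lay apart by the fibroblast sum, at 1194, 1149 and 1804 TPM with IgG1 and 928, 847 and 684 TPM with anti-PD-1, and by the endothelial sum, at 101, 106 and 123 and 83.7, 83.1 and 87.1 TPM, where Col1a1 and Pecam1 were the most abundant genes. Of 7 fibroblast markers 3 lay apart and lower, and of 5 endothelial markers 0 did, beside 6.24% of all genes. Col1a1, at 432, 527 and 745 TPM with IgG1 and 238, 234 and 132 TPM with anti-PD-1, had the lowest log2 fold change (-1.50). Those of Dcn (-0.027), Lum (-0.074) and Pdgfra (-0.098), named after their values were seen, were within the spread between tumors. With doxorubicin added to anti-PD-1, sums were higher for fibroblasts (1061, 1408 and 1582 TPM), for adipocytes (822, 285 and 235 TPM against 148, 97.8 and 163 TPM, most abundant gene Cfd) and for basal and myoepithelial cells (339.8, 411 and 521 TPM against 170.5, 273 and 262 TPM, most abundant gene Acta2), each apart from anti-PD-1 alone, as was the plasma cell sum. Apart and higher were 5 of 7 fibroblast, 5 of 7 adipocyte, 3 of 6 basal and 3 of 5 plasma cell markers tested, beside 11.1% of all genes. Krt5, Krt14 and Trp63, named after their values were seen, overlapped. Most of the plasma cell sum was Sdc1, at 61.7, 89.9 and 61.5 TPM against 56.8, 58.9 and 42.9 TPM. Irf4 passed the expression minimum only through the DOX/anti-PD-1 tumors, and Jchain (-0.45) and Prdm1 (-0.19) had lower means. No marker of these lists was at 0 in all tumors other than Tnfrsf17, and their part in the levels of the 10 genes was not tested.

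**Figure D5:**
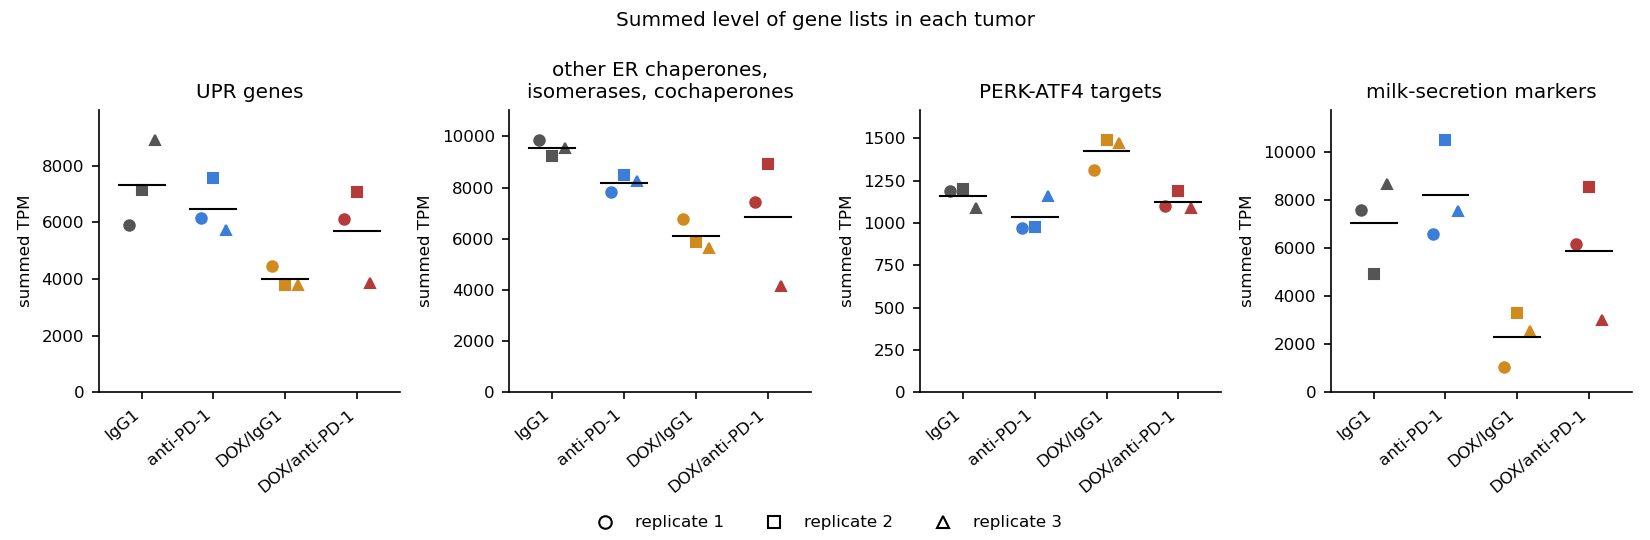
Summed TPM per tumor (points, shape gives the replicate, line at the group mean) of the 10 unfolded protein response genes, 26 further chaperones, isomerases and cochaperones, 24 PERK-ATF4 targets and 9 milk-secretion markers. DOX/anti-PD-1 replicate 3 (3844 TPM for the 10 genes and 2987 TPM for milk secretion) sits with the DOX/IgG1 tumors, and replicates 1 and 2 sit above them in both panels.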

How the data were processed

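RNA of 12 snap-frozen tumors was sequenced with a SMARTer stranded total RNA kit. The study's methods name SeqBox, with skewer for trimming, STAR for mapping to mm10, RSEM for quantification and DESeq2 for its own comparisons, and the submitters' processing notes name STAR, RSEM and mm10, without versions. The authors deposited log2(TPM + 1) values, written with decimal commas, for 21960 genes per tumor, and these were turned back into TPM. TPM hold no read counts, so tools for counts could not be used. Groups and replicates were taken from the labels, and no tumor was left out. Per the file headers, the column name of DOX/IgG1 replicate 1 holds the extra word "test" and those of the 3 DOX/anti-PD-1 tumors end in 2 where the other 9 end in 1, and no meaning of these marks is given. Pairs of groups were compared in R 4.3.3 with limma 3.58.1 (lmFit, eBayes with trend, two-sided, Benjamini-Hochberg over all genes tested), on genes at or above 1 TPM in 3 or more tumors, and the interaction over all 12 tumors. These steps were tested on simulated data. Exact permutation tests were also run in R. The 100000-permutation correlations, motif searches and figures used Python 3.11.15, numpy 2.4.6, pandas 2.3.3, scipy 1.17.1 and matplotlib 3.10.9. Promoter windows are from RefSeq (GRCm38.p6), coordinates and transcripts from GENCODE (GRCm38). The genes named are the 10 unfolded protein response genes, and from 4 further lists (sensors and transcription factors, chaperones and isomerases, degradation, PERK-ATF4 targets) every called gene, the genes with the highest and lowest log2 fold change between the doxorubicin arms and up to 4 well-known genes. From the marker lists they are the most abundant gene and defining markers at 0, and for Xbp1 and Hspa5 the 5 genes with the most similar pattern. Alternatives were other pseudocounts, filters, scalings, limits and variance models, all tumors in one fit, the replicate number as a block and leaving out each tumor. The members and lists were chosen with earlier results of these data known.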

Additional observations from a re-analysis of the deposited data

Results flagged for a closer look

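When tested for whether the antibody difference changed with doxorubicin, Bpifa2, a gene of salivary-type secretion, was the 1 gene called by limma. It was listed at 14.4, 21.3 and 53.7 TPM in the DOX/IgG1 tumors and at 0 in all tumors of the other 3 groups, so it was above 0 in 3 of 3 tumors of that group alone. The interaction term on log2(TPM + 1) was -4.73 (SE 0.66, limma adjusted p = 0.0909). Since 3 groups are at 0, the size of this term depends on the 1 TPM added before the logarithm and is no fold change. The gene also passes the expression minimum only through the DOX/IgG1 tumors, the group in which it was high, so it was selected by a group that the test compares. The call was lost with a pseudocount of 0.1 (adjusted p = 0.991), with a minimum of 5 TPM (0.997), with median-of-ratios scaling (0.104), with TPM rescaled to the same sum (0.111), with the replicate block (0.276) and at a limit of 0.05. Without 1 tumor at a time the adjusted p of Bpifa2 lay between 0.0332 and 0.397, and only without DOX/IgG1 replicate 1 was it called. It was called with no filter beyond 1 nonzero tumor (0.0455) and without the trend (0.0240).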

How the results depend on the processing

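The members called were 0 in each comparison under the other pseudocount, filters, scalings, limits and variance model, with 1 exception in DOX/IgG1 against IgG1 tumors, where 1 member (Xbp1) was called with all 12 tumors in one fit, and 0 to 1 when single tumors were left out (1 without DOX/IgG1 replicate 1). Of 13874 genes in all, 7 were called with all 12 tumors in one fit and 122 without DOX/IgG1 replicate 1. With the replicate number as a replicate block the members called were 0 in every comparison, Xbp1 had an adjusted p of 0.302 between DOX/IgG1 and IgG1 tumors, 2 (Dmbt1 and Hist1h2af) in place of 5 genes were called there and 0 in place of 1 in the interaction, and the block left the count at 0 in the remaining comparisons. Deviations from group means were correlated between tumors of the same replicate number at -0.0963 to 0.134 over 18 pairs, so the numbers were not used as pairs. Median-of-ratios scaling reversed the log2 fold changes of Hspa5 (-0.074), Herpud1 (-0.023) and Creld2 (-0.075) for doxorubicin added to anti-PD-1; the cause was not tested. Leaving out 1 tumor at a time gave ranges that crossed 0 for some genes. Between the doxorubicin arms these were -0.19 to 0.94 for Pdia6, -0.40 to 0.16 for Dnajb9, -0.029 to 0.44 for Herpud1 and -0.038 to 0.96 for Ddit3. Between anti-PD-1 and IgG1 tumors they were -0.017 to 0.18 for Xbp1, -0.32 to 0.23 for Hsp90b1, -0.21 to 0.10 for Pdia4, -0.48 to 0.21 for Sdf2l1 and -0.091 to 0.70 for Ddit3. Between DOX/IgG1 and IgG1 tumors the range was -0.51 to 0.48 for Ddit3. With doxorubicin added to anti-PD-1 they were -0.19 to 0.31 for Hspa5, -0.34 to 0.038 for Hsp90b1, -1.08 to 0.052 for Pdia6, -0.54 to 0.36 for Sdf2l1, -0.16 to 0.16 for Creld2 and -0.16 to 0.46 for Ddit3. The count of members apart and higher between the doxorubicin arms was 1 as reported, where 4.27% of all genes lay so. It was 1 to 6 when single tumors were left out, an alternative chosen after seeing the data, where 7.18% to 10.8% of all genes did (10.8% in the setting with 6). Of all genes, 0 were called between the doxorubicin arms, but 3 under either scaling (among them Bpifa2 and Smr3a), 2 with all 12 tumors in one fit and 3 without the trend, and 0 to 4 when single tumors were left out. Without the trend 1 gene (Phpt1) in place of 0 was called between anti-PD-1 and IgG1 tumors and 3 (Ftl1-ps1, Mup16 and Tmsb15b1) in place of 0 for doxorubicin added to anti-PD-1, and both counts were 0 to 4 when single tumors were left out. Between DOX/IgG1 and IgG1 tumors 13 were called without the trend and 0 to 122 when single tumors were left out. The interaction called 1 gene (Bpifa2), but 0 with a pseudocount of 0.1, a minimum of 5 TPM, either other scaling, an adjusted p below 0.05 or the replicate block, 3 without the filter or the trend, and 0 to 1 when single tumors were left out (1 without DOX/IgG1 replicate 1, which was Bpifa2, and 1 without DOX/anti-PD-1 replicate 3, which was Hist1h2af); the cause was not tested. TPM hold no depth, so the part of read depth in these values is unknown.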
